A study of Arabidopsis thaliana with 4 samples.

Results

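The mitochondrial genome of Arabidopsis thaliana encodes subunits of the respiratory chain and proteins that assemble cytochrome c, and the nad and ccb genes are among them. The probe sets described here carry the name of 1 gene each, with a symbol that begins with nad or ccb, and were chosen by their mean signal over all 4 arrays, which had to be at least 20. The rule gave 10 probe sets for 7 genes (ccb382, ccb452, nad1, nad4, nad4L, nad5 and nad9), out of 19 nad and ccb probe sets for 12 genes and of 22810 probe sets on the array. The rule used no difference between genotypes, but nad4L, ccb382 and ccb452 were singled out by name with results of these data known. Their p-values are therefore no independent support.

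Expression was measured in whole plants with the Affymetrix ATH1 array, on which each probe set summarises the brightness of several short probes. The smg7b group is the T-DNA insertion line SALK_050115 in the Columbia-0 accession (2 samples), and the wild-type group is Columbia-0 (2 samples). Plants of both groups were grown in 5 inch pots in constant light at 22 °C and 65% humidity, up to 17 days after germination. The series looks for genes controlled by SMG7b. This protein is counted among the factors of nonsense-mediated decay, a pathway that removes cytoplasmic mRNAs with a premature stop codon. A single insertion line was measured, so other changes in that line cannot be told apart from the insertion. Whether the 2 samples of a genotype were separate sets of plants is not stated in the labels. The p-values thus measure only how far these samples spread, which may be technical.

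Complex I is the large NADH dehydrogenase of the inner mitochondrial membrane. It passes electrons from NADH to ubiquinone and pumps protons, and in plants its nad subunits are made inside the mitochondrion while most others are encoded in the nucleus. The ccb genes, named ccm in RefSeq, encode membrane proteins that attach heme to cytochrome c in the intermembrane space. Plant mitochondrial transcripts are spliced and edited inside the organelle, and they mostly lack the long poly(A) tails of nuclear mRNAs. The label protocol, one-cycle target labelling, starts from an oligo(dT) primer. Nonsense-mediated decay acts on translated mRNAs in the cytoplasm, outside the organelle.

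The gene targeted in the mutant (AT1G28260) read 16.7 and 14.4 in smg7b and 49.7 and 46.8 in wild type, and was lower in both mutant samples. Where this probe set lies with respect to the T-DNA is not stated in the labels or files. All 4 arrays had the same trimmed mean signal (100.01), and 72.0% to 75.5% of plant probe sets exceeded the array's background, the brightest of its bacterial control probe sets (6.42 to 9.21). None of the 13 organ markers listed for this tissue had a single-gene probe set here, so the label "whole plant" was not checked against markers. All 10 nad and ccb probe sets lay above background on all 4 arrays.

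The nad and ccb transcripts were mostly brighter in smg7b, by up to 2.29-fold. Signal differences were positive for 9 of the 10 probe sets, and for 6675 of all 13648 probe sets tested. The median log2 difference was 0.72 for the 10, against -0.01 over all 13648. The test was limma's moderated fit over all of these, with Benjamini-Hochberg adjustment and a threshold of 0.05. It called 3 of the 10 higher (ccb382, nad4L and ccb452) and 0 lower (0 also at an unadjusted p under 0.05), while 20.3% of all tested probe sets were called in either direction and 11.3% as higher. For 6 of the 10 both smg7b signals lay above both wild-type signals, against 30.1% of all tested probe sets. The probe sets of nad4L and 257321_at of nad1 reached the mean of 20 only through their smg7b signals, as their wild-type means lay under 20, so they had to be higher in smg7b. Of the 8 others, 2 were called higher, 7 had a positive difference and 4 did not overlap. These counts describe the probe sets and support no more than that. All probe sets of an array share its effects, so these shares do not stand for independent genes. In RNA from whole plants, more cells rich in these transcripts and more of the transcripts per cell cannot be told apart.

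**Figure D1:**
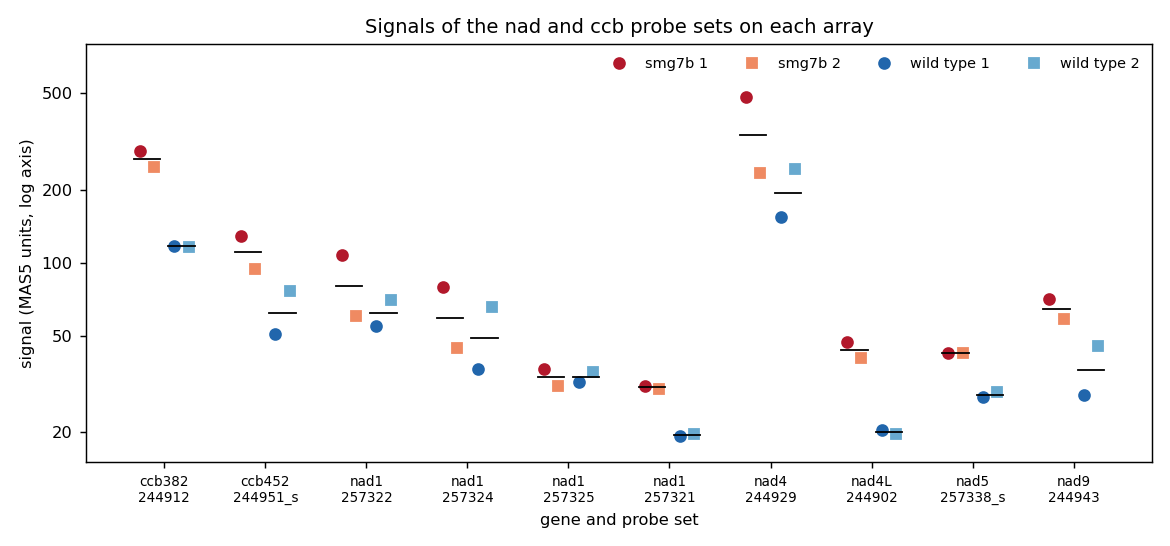
Signal of each nad and ccb probe set (log axis, MAS5 units) on the 2 smg7b arrays (red) and the 2 wild-type arrays (blue), with a line at the geometric mean of each genotype. For ccb382, nad4L and the nad1 probe set 257321_at the replicates of a genotype lie close together and the genotypes are apart, while for nad4 the genotypes overlap.

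Among the assembly genes, ccb382 had the clearest difference. CcmF, which joins heme to cytochrome c, is split in Arabidopsis into several genes, and ccb382 (ccmFN1) holds one piece. It read 288 and 248 in smg7b, against 118 and 116 in wild type. The genotypes were far apart and the wild-type arrays nearly equal. The fold was 2.29, a log2 change of 1.19 (SE 0.19, 95% interval 0.77 to 1.62, n = 2 per genotype, adjusted p = 0.00120 in limma). This call was kept under every alternative tried, with a log2 change between 1.01 and 1.30. Some of these fits took no spread from the probe set itself, so their p-values are too small. Another alternative was added after seeing the data.

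Another piece of CcmF is encoded by ccb452 (ccmFC). Its probe set read 129 and 94.2 in smg7b, against 50.9 and 76.3 in wild type. The genotypes did not overlap, but the lower smg7b array and the higher wild-type array were close. The log2 change was 0.82 (SE 0.26, 95% interval 0.25 to 1.39, adjusted p = 0.0439 in limma), just inside the threshold. The call was lost after median centring, quantile and cyclic loess normalization (adjusted p = 0.0607, 0.0651 and 0.0502). With 3 arrays it was lost in 3 of 4 fits. Dropping smg7b replicate 1 gave 0.60 (adjusted p = 0.387), dropping smg7b replicate 2 gave 1.05 (adjusted p = 0.0633) and dropping wild-type replicate 1 gave 0.53 (adjusted p = 0.125). Dropping wild-type replicate 2 kept the call (1.12, adjusted p = 1.71e-04, with the spread of the intensity trend alone). The suffix of this probe set (_s_at) marks probes shared by several transcripts, so other copies of the sequence may add to it. Nuclear chromosome 2 of Arabidopsis carries a large copy of the mitochondrial genome, and transcripts of either copy cannot be told apart here. Without probe sequences, this limit holds for the other nad and ccb probe sets too.

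The other ccb genes were below the signal threshold and were not tested. The probe set of ccb206 (ccmB), a subunit of the transporter of the assembly machinery, was the first one outside, with a mean of 18.3. It read 27.1 and 20.3 in smg7b, against 13.1 and 12.8 in wild type, and the genotypes did not overlap. The probe set of ccb203 (ccmFN2), the remaining piece of CcmF, read 10.8 and 17.3 in smg7b, against 8.65 and 12.8 in wild type, and the genotypes overlapped. The last probe set inside the threshold was 257321_at of nad1, with a mean of 25.05.

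Among the complex I genes, nad4L, which encodes a small subunit of the membrane arm, had the largest difference. Its signals were 47.2 and 40.4 in smg7b, against 20.3 and 19.6 in wild type. Replicates agreed closely and the genotypes were well apart. The fold was 2.18, a log2 change of 1.13 (SE 0.29, 95% interval 0.49 to 1.76, adjusted p = 0.0182 in limma). The size held when either smg7b array was left out, at 1.02 without replicate 1 and 1.24 without replicate 2, but the adjusted p was then 0.197 and 0.0756. Leaving out either wild-type array kept the call, with p-values that rest on the intensity trend alone.

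The antiporter-like subunits of the membrane arm, through which protons are thought to pass, are encoded by nad4 and nad5 among others. The brightest nad probe set, that of nad4, read 483 and 235 in smg7b, against 155 and 244 in wild type. A single smg7b array stood above the other arrays, and the genotypes overlapped. The log2 difference was 0.79 (SE 0.31, adjusted p = 0.0998), and 0.27 without smg7b replicate 1 against 1.31 without smg7b replicate 2. For nad5 the tested probe set read 42.6 and 42.4 in smg7b, against 27.8 and 29.3 in wild type. Replicates were almost equal and the genotypes did not overlap, yet the log2 difference of 0.57 (SE 0.27, adjusted p = 0.162) did not pass. The test borrows its spread from all probe sets of similar brightness. Like that of ccb452, this probe set has the suffix _s_at.

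The peripheral arm, which binds NADH and carries electrons toward the membrane, contains the protein of nad9. Its probe set read 71.1 and 58.4 in smg7b, against 28.5 and 45.6 in wild type. The genotypes did not overlap, and the wild-type arrays differed more than the smg7b arrays. The log2 difference was 0.84 (SE 0.29, 95% interval 0.21 to 1.47, adjusted p = 0.0588), as large as that of ccb452 and just outside the threshold. It passed without wild-type replicate 2 (1.18, adjusted p = 7.27e-04, again with the spread of the trend alone). It fell short by more without wild-type replicate 1 (0.50, adjusted p = 0.219), without smg7b replicate 1 (0.70, adjusted p = 0.374) and without smg7b replicate 2 (0.98, adjusted p = 0.125).

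The nad1 gene encodes a membrane subunit near the ubiquinone site, and its mRNA is joined from separate precursors by trans-splicing. The platform table gives 7 single-gene probe sets for it, of which 4 were bright enough. Another 2 probe sets, which nad1 shares with a nuclear gene, were too dim to test. Which exon, intron or intervening stretch each one reads was not established here. None of the 4 was called, and none had an unadjusted p under 0.05. The probe set 257321_at read 30.9 and 30.3 in smg7b, against 19.2 and 19.7 in wild type. Replicates were nearly identical and the genotypes did not overlap, with a log2 difference of 0.65 (SE 0.31, adjusted p = 0.162).

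The other nad1 probe sets overlapped between genotypes. Signals of 257322_at were 107 and 60.3 in smg7b, against 54.7 and 70.0 in wild type, a log2 difference of 0.38 (SE 0.29, adjusted p = 0.393). Signals of 257324_at were 79.1 and 44.4 in smg7b, against 36.5 and 65.7 in wild type, a log2 difference of 0.28 (SE 0.34, adjusted p = 0.612). In both, smg7b replicate 1 was high and wild-type replicate 1 was low. The probe set 257325_at was level, with 36.4 and 31.1 in smg7b, against 32.1 and 35.3 in wild type. Its log2 difference was -0.0019 (SE 0.28, 95% interval -0.61 to 0.61). The intervals of the 4 overlap, and the difference between them was not tested.

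**Figure D2:**
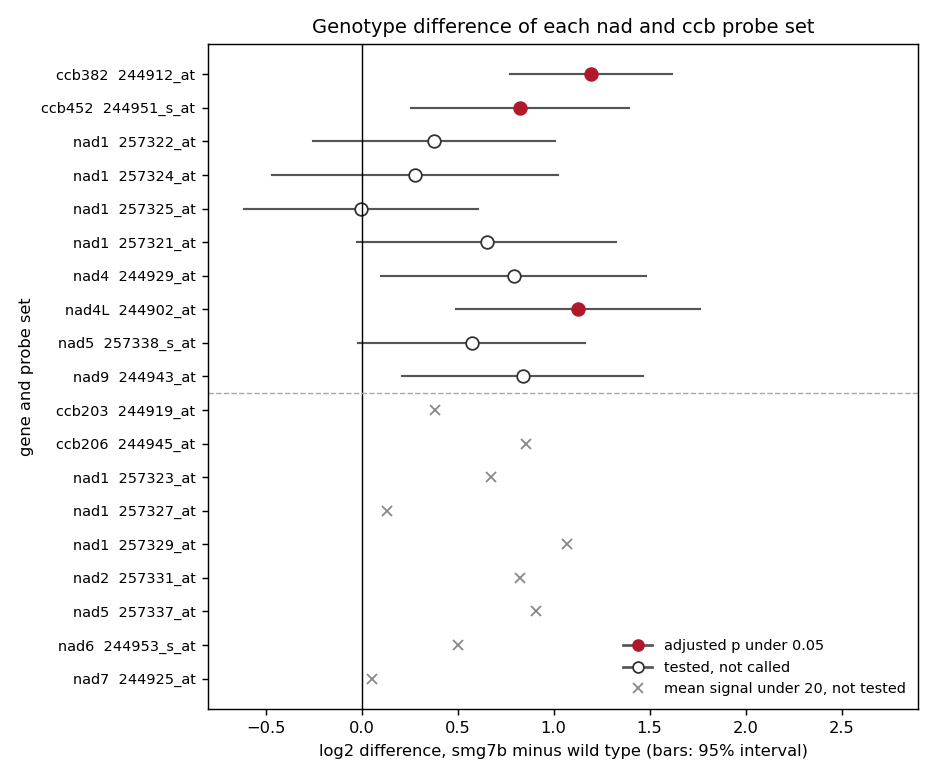
Log2 difference (smg7b minus wild type) of all 19 nad and ccb probe sets. Bars are 95% intervals of the 10 tested probe sets, filled points passed an adjusted p of 0.05, and crosses under the dashed line are the 9 probe sets with a mean signal under 20, which were not tested. The 3 filled points lie between 0.82 and 1.19.

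Of the 9 probe sets below the threshold, 5 lay above background on all 4 arrays, and none was tested. In 3 of the 9 both smg7b signals lay above both wild-type signals, a share near the 30.1% of all tested probe sets. Besides ccb206 these were the dimmer probe set of nad5, at 18.1 and 22.0 in smg7b against 9.13 and 12.3 in wild type, and that of nad6, another membrane subunit, at 16.2 and 18.2 in smg7b against 10.5 and 13.97 in wild type. The nad7 probe set, for a peripheral arm subunit, was near background at 7.24 and 5.72 in smg7b, against 6.78 and 5.66 in wild type. The single probe set of nad2 lay under background on all 4 arrays. Nothing can be said about that gene here. The 3 remaining nad1 probe sets overlapped between genotypes and had at least 1 signal under 10. Differences of the 4 probe sets with arrays under background have no direction.

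Single arrays shared a direction across the nad and ccb probe sets. All 10 were brightest in smg7b replicate 1, and 7 of the 10 were dimmest in wild-type replicate 1. The geometric mean of the 10 was 86.9 and 65.2 in smg7b, against 42.3 and 53.2 in wild type. Replicate 1 exceeded replicate 2 within smg7b for 53.7% of all tested probe sets, and replicate 1 was below replicate 2 within wild type for 52.3%. For plastid probe sets these shares were 89.9% and 88.4%, so the pattern was not particular to nad and ccb.

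Control measures of the same arrays also differed, though not all in the order of these signals. The 3'/5' ratio of the Actin control, which grows when RNA is degraded or copied short, was 25.8 and 9.65 in smg7b, against 2.22 and 8.62 in wild type. The same ratio of the GAPDH control varied less, at 2.26 and 1.41 in smg7b, against 0.96 and 1.22 in wild type. The 25S ribosomal RNA control, a transcript without a poly(A) tail, read 1104 and 1531 in smg7b, against 663 and 704 in wild type, a fold of 1.90. The median of 9 spiked-in hybridisation controls was 172 and 143 in smg7b, against 54.6 and 143 in wild type, with wild-type replicate 1 apart from the rest. The genotypes did not overlap in the Actin ratio, the GAPDH ratio or the ribosomal RNA signal. The part of the ribosomal RNA signal and of the spiked-in controls in the result was not tested.

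The Actin ratio was added to the fit as a covariate. The ratio did not overlap between genotypes, so this fit cannot separate its part from that of genotype. With the ratio in the fit, ccb382 had a log2 change of 1.11 (SE 0.28, adjusted p = 0.00126 in limma) and nad4L had 1.06 (SE 0.47, adjusted p = 0.132). For ccb452 the change was 0.26 (SE 0.32, adjusted p = 0.707), for nad9 0.29 (SE 0.38) and for nad4 -0.081 (SE 0.27). Values for nad5 (0.52, SE 0.43) and the nad1 probe set 257321_at (0.62, SE 0.51) stayed close to those without it. That fit took its spread from the intensity trend and none from the probe set itself, and its p-values understate the error of noisy probe sets.

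**Figure D3:**
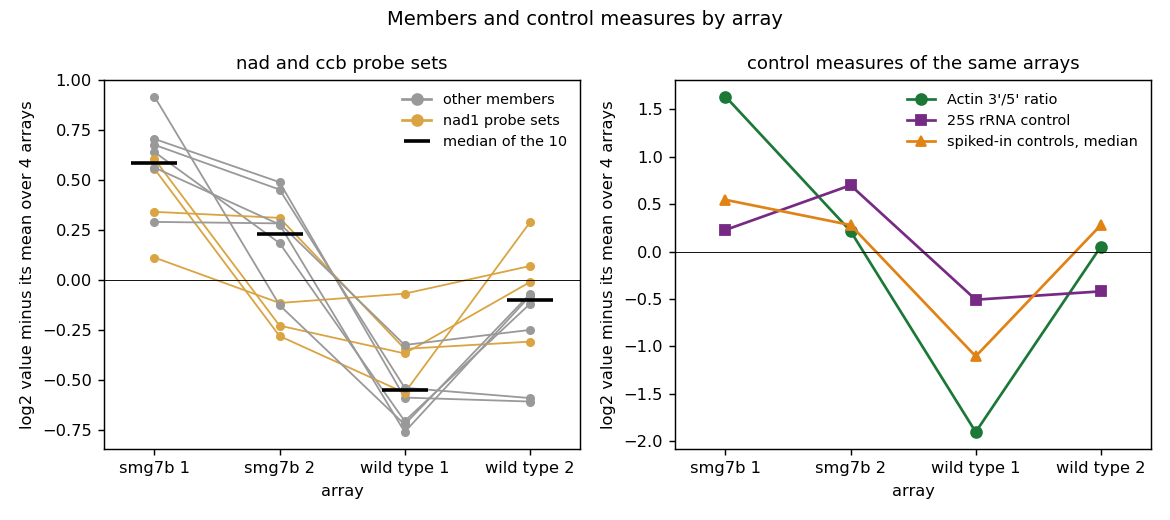
Left, log2 signal of each of the 10 nad and ccb probe sets minus its mean over the 4 arrays, with lines joining the values of a probe set and black marks at the median. Right, the Actin 3'/5' ratio, the 25S ribosomal RNA control and the median of the 9 spiked-in controls on the same scale; smg7b replicate 1 is highest and wild-type replicate 1 lowest in the Actin ratio (25.8 and 2.22) and in the spiked-in controls (172 and 54.6).

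Other transcripts of the mitochondrial genome also had positive differences, but none with a single-gene probe set passed. Beside the nad and ccb genes the table names 4 single-gene mitochondrial probe sets, 3 of which were tested and 0 called (1 at an unadjusted p under 0.05). The gene cox1, for the core subunit of cytochrome c oxidase, read 208 and 144 in smg7b, against 114 and 119 in wild type, a log2 difference of 0.57 (SE 0.22, adjusted p = 0.0906). Its partner subunit gene cox2 read 41.7 and 27.6 in smg7b, against 20.3 and 25.1 in wild type, a log2 difference of 0.59 (SE 0.32, adjusted p = 0.229). In both the genotypes did not overlap. The gene orfX (mttB, a transport protein), the named coding gene that follows nad4 in the RefSeq order, overlapped between genotypes, with a log2 difference of 0.17 (SE 0.32, adjusted p = 0.755). A further 12 probe sets match a mitochondrial gene together with another gene. Of these 9 were tested and 3 were called higher, against 11.3% of all tested probe sets. The 9 had a median log2 difference of 0.72 and a range from 0.26 to 1.24. The called ones in limma were cob with AT2G07727 (1.24, adjusted p = 0.00742), atp1 with AT2G07698 (0.86, adjusted p = 0.0180) and rps3 with rpl16 (0.73, adjusted p = 0.0424). The difference of the probe set shared by cob and AT2G07727 was larger than that of any tested nad or ccb probe set. Among the 3 untested ones, 2 carry the name of nad1 beside that of a nuclear gene. These 2 had log2 differences of -0.61 and -1.55, with overlapping genotypes and with only 3 and 1 of the 4 arrays above background.

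The nuclear partners of the nad genes had mostly negative differences, 18 of 24, against 6973 of all 13648 tested probe sets. Of 37 nuclear genes listed for complex I and its carbonic anhydrase-like subunits, 24 had a single-gene probe set. None of the 24 was called in limma, and 3 were lower and 0 higher at an unadjusted p under 0.05. Over all 13648 tested probe sets, 2241 were lower and 2346 higher at that level. The median log2 difference of the 24 was -0.19, with a range from -0.58 to 0.16. The lowest was AT3G12260 (B14 subunit), at 653 and 756 in smg7b against 1079 and 1018 in wild type (adjusted p = 0.0690). The next was AT2G20360, another subunit, at 231 and 367 in smg7b against 444 and 408 in wild type (adjusted p = 0.122). The highest were AT4G00585 with 0.16 (adjusted p = 0.626) and AT5G47890 with 0.06. The difference between the nuclear and the mitochondrial genes was not tested, and they are read by different probe sets.

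For cytochrome c and its maturation, 5 of 7 listed nuclear genes were measured. CCMH, which encodes a partner protein of CcmF that handles the thiols of apocytochrome c, fell to 14.7 and 17.6 in smg7b, against 38.8 and 32.7 in wild type. Its log2 change was -1.15 (SE 0.32, adjusted p = 0.0257), opposite in sign to ccb382 and ccb452. The call was lost when smg7b replicate 1, smg7b replicate 2 or wild-type replicate 1 was left out. CCMH was also not called with no filter on dim probe sets, with a 60th percentile filter, or with the Actin ratio in the fit. The cytochrome c genes CYTC-1 (0.28, SE 0.22, adjusted p = 0.401) and CYTC-2 (-0.19, SE 0.21, adjusted p = 0.578) did not pass. The gene AT5G40810, for cytochrome c1, had -0.34 (SE 0.19, adjusted p = 0.246) and did not pass either.

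Nuclear factors that transcribe, splice, edit or degrade mitochondrial RNA were mostly too dim. Of 22 listed, 7 had a probe set and 3 were tested, with 0 called and 1 at an unadjusted p under 0.05. The splicing maturase gene AT5G46920 (nMAT2) read 178 and 143 in smg7b, against 102 and 109 in wild type, a log2 difference of 0.59 (SE 0.21, adjusted p = 0.0624). The maturase gene AT5G04050 (nMAT3) had -0.56 (adjusted p = 0.261) and AT3G61360 (SLO3), of the pentatricopeptide repeat family, had 0.36 (adjusted p = 0.471).

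Of 11 listed nuclear genes known to be induced when mitochondria are disturbed, 4 had a probe set and 2 were tested. NDB2, an external NADH dehydrogenase that bypasses complex I, rose to 139 and 191 in smg7b, against 54.7 and 23.2 in wild type. Its log2 change was 2.19 (SE 0.35, adjusted p = 0.00101). AT2G21640, a marker of oxidative stress in mitochondria, read 15.7 and 19.5 in smg7b, against 35.7 and 31.9 in wild type (-0.94, SE 0.32, adjusted p = 0.0551). The probe set of NDB4 lay under background on all 4 arrays and gives no direction. That of AT5G51440 read 9.85 and 6.50 in smg7b, just above background, against 0.61 and 1.42 in wild type, under background, and was not tested. The 2 tested genes had opposite signs.

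The plastid genome gives the transcripts of the other organelle. Of its 68 tested single-gene probe sets 56 had a positive difference, against 6675 of all 13648 tested. Their median log2 difference was 0.29, and 2 were called, against 20.3% of all tested probe sets. The called ones in limma were atpH and psaA. The first, a subunit of ATP synthase, rose by 0.83 on the log2 scale (SE 0.23, adjusted p = 0.0279). The gene psaA, of photosystem I, fell by 0.87 (SE 0.23, adjusted p = 0.0189). None of the tested ndh genes, which encode the plastid NADH dehydrogenase-like complex, a relative of complex I, was called. Wild-type replicate 1 was below replicate 2 for 88.4% of plastid probe sets, and smg7b replicate 1 was above replicate 2 for 89.9%.

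**Figure D4:**
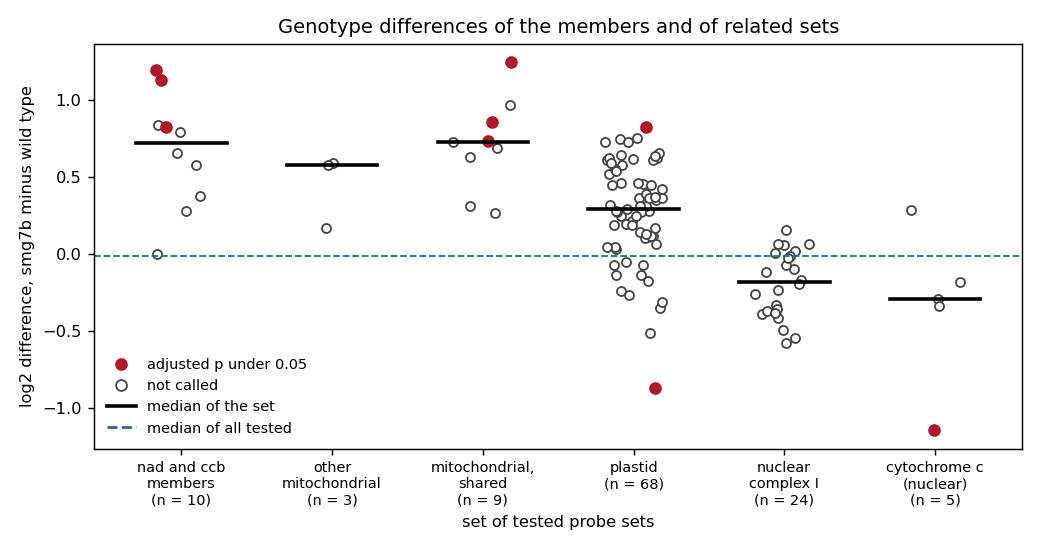
Log2 difference (smg7b minus wild type) of the tested nad and ccb probe sets and of related sets, one point per probe set, filled where the adjusted p was under 0.05, with the median of each set (black) and of all tested probe sets (dashed). Medians were 0.72 for the nad and ccb probe sets, 0.29 for plastid genes and -0.19 for nuclear complex I genes.

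Probe sets with the most similar pattern were found by the root mean square difference of centred log2 signals over the 4 arrays, among 7343 tested single-gene probe sets. Nearest to ccb382 was AT4G28570, at a distance of 0.038, with 125 and 108 in smg7b against 48.9 and 51.9 in wild type. Nearest to nad4L were AT5G51770 (0.032) and BIK1 (0.036), a receptor-associated kinase of immunity, with 166 and 147 in smg7b against 75.3 and 74.1 in wild type. AT5G51770 was also the second nearest to ccb382. Nearest to ccb452 was AT4G24160 (0.026), to nad9 AT3G22240 (0.028), and to nad5 FIS1B, a gene of organelle division (0.015). The nearest to nad4 was the plastid gene rps15 (0.095), with 309 and 155 in smg7b against 115 and 152 in wild type. Among so many probe sets and with 4 arrays, close neighbours of any pattern can be found.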

How the data were processed

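Each sample was hybridised to its own ATH1 array. The deposited values are 1 signal intensity per probe set and array, on a linear scale; MAS5 and GCOS are the authors' tools per the submitters' processing notes, without version numbers. Equal trimmed means show that arrays were scaled alike. Genotype and replicate number came from the sample titles.

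Signals were put on the log2 scale without a pseudocount. The 64 control probe sets were left out, and probe sets at or above the 40th percentile of mean log2 signal (4.32) were tested, 13648 of 22746. All 10 nad and ccb probe sets with a mean of at least 20 passed this filter, and none of the other 9. The test was limma 3.58.1 in R 4.3.3 (lmFit, eBayes with an intensity trend; 11.6 total degrees of freedom), with genotype as the only term and Benjamini-Hochberg adjustment. The number of arrays limits the precision: an exact permutation test of 2 against 2 cannot go below p = 0.333.

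Names came from the platform table (13513 probe sets with 1 gene, 503 with several, 8794 unnamed here). The mitochondrial genes were matched by symbol, not by locus as first planned, to the RefSeq table of TAIR10.1 (23 probe sets), and 13436 others by gene identifier. Nuclear lists were recalled by locus from general knowledge. Members and lists were chosen with earlier results of these data known. Named genes were all nad and ccb probe sets, other mitochondrial ones, called members and at most 2 highest and 2 lowest of each list, and the 3 nearest in pattern. The fit was tested on simulated data, with spreads drawn from its own model and noise independent between probe sets. It recovered 5 of 50 changes of 1.5-fold, 15 of 50 of 2-fold and 47 of 50 of 4-fold. A probe set not called may thus still differ by such small folds. Probe sets of a real array share its effects, so recovery in these data may differ from the simulated one. Same-numbered arrays deviated with a correlation of -0.146. This does not settle whether samples were paired by number, and the main fit did not pair them.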

Additional observations from a re-analysis of the deposited data

How the results depend on the processing

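Alternatives were other normalizations, filters, a pseudocount of 32, other moderation, replicate blocks, the Actin ratio and each array left out. The rise of ccb382 kept its call under all 15. For nad4L the call was lost with no filter on dim probe sets (1.13, adjusted p = 0.0650) and with the Actin ratio in the fit (1.06), and the log2 change ran from 1.02 to 1.24 with arrays left out. The pseudocount, which shrinks dim probe sets by construction, gave 0.54 for nad4L and 0.59 for ccb452, both still called. For ccb452 it was lost after median centring (0.71), quantile (0.73) or cyclic loess normalization (0.79), with no filter or no intensity trend (0.82 each; adjusted p = 0.0756 and 0.0697), with the replicate block (0.82, adjusted p = 0.05002, just above the threshold) and with the Actin ratio (0.26), and ran from 0.53 to 1.12 with arrays left out. The cause was not tested.

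The members called higher numbered 1 with no filter, 1 with the Actin ratio, 5 with a crossed replicate block, and 1 to 5 with arrays left out; the counts of all single-gene mitochondrial probe sets were 1, 1, 6, and 1 to 6. The signs of nad4, 257322_at and 257324_at turned with the Actin ratio (-0.081, -0.22 and -0.63). With arrays left out, 257322_at ran from -0.039 to 0.79, 257324_at from -0.15 to 0.70 and 257325_at from -0.12 to 0.11. The replicate block otherwise changed no call of the members. The crossed block, pairing unlike replicate numbers and added after seeing the data, left the differences as they were and also called nad4 and nad9.

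Over all tested probe sets, 1543 were called higher and 1228 lower, so 55.7% were higher, against 42.2% after median centring (1274 and 1742), which lowered the median of all by 0.12; the members' differences fell by the same amount. With arrays left out, 720 to 2291 were higher and 260 to 2034 lower. There were 603 lower with the Actin ratio, and 1885 with the crossed block. The nuclear complex I list had 1 call after median centring, 2 with the crossed block, and 0 to 9 with arrays left out. The cytochrome c list had 0 with no filter, with the 60th percentile filter (which also removed 6 of the 10 members from the test) and with the Actin ratio, and 0 to 2 with arrays left out. The RNA factors had 1 with the crossed block and 0 to 1 with arrays left out. The mitochondrial disturbance list had 2 after median centring, after quantile normalization, with the pseudocount, with no intensity trend and with the crossed block. A mean of at least 50 would leave 6 nad and ccb probe sets, and a lowest signal of at least 20 would leave 8. Without either wild-type array and with the Actin ratio, limma used the intensity trend alone, so those p-values are too small.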
